A study of Rattus norvegicus with 9 samples.

Results

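The genes described are the rat glutathione, thioredoxin and peroxiredoxin genes, the thiol-based systems with which cells remove peroxides and keep protein cysteines reduced. They were taken by name from the expression table: every locus with a single gene name beginning Gsta, Gstm, Gstp, Gstt, Gstk, Gsto or Gstz and a digit, Gpx or Prdx and a digit, Txn or Glrx, together with Gclc, Gclm, Gss, Gsr, Nqo1, Hmox1, Srxn1 and Nfe2l2. Where a name occurred at several loci, the locus with the highest mean was kept. This gave 60 members of 30315 loci, 25670 of which carry a single name. A mean of at least 1 FPKM over all libraries, the level set for testing, was reached by 50 members. Of the 10 others, 7 were listed at 0 in every library (Gpx5, Gpx6, Gstm5, Gstm6l, Gstt4, Txndc2 and Txndc8), and Gsto2, Gstm3 and Gstm6 had means of at most 0.647 FPKM. FPKM is the number of sequenced fragments per length of transcript and per number of mapped fragments, so levels of different genes can be set side by side.

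RNA came from the renal outer medulla of 9 rats of the MCW SS (salt-sensitive) strain, 1 library per rat and 3 rats per group. The rats labelled 0.4% salt ate 0.4% NaCl and had the same surgical preparation as the others, but tissue was taken before any GapmeR or high-salt diet. A GapmeR is an antisense oligonucleotide that directs cleavage of a matching RNA. Rats labelled HS_SCR were given a scrambled GapmeR by the intrarenal route, 4 mg/kg, and 7 days of chow with 4% NaCl. Rats labelled HS_DT were given GapmeRs against Dnmt3a, which methylates DNA, and Tet3, which oxidises methylcytosine, by the same route at 2 mg/kg each, and the same chow. No group had the diet alone, the GapmeR alone or the passage of 7 days alone, so these cannot be told apart in a comparison with 0.4% salt. Values are given in the order of replicates 1, 2 and 3 of each group.

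Glutathione is made from glutamate, cysteine and glycine by glutamate-cysteine ligase, whose catalytic subunit is Gclc and modifier subunit Gclm, and then by glutathione synthetase (Gss). Glutathione peroxidases such as Gpx1 and GPX4 spend it to reduce peroxides, and glutathione S-transferases attach it to electrophiles. Glutaredoxins use glutathione to reduce mixed disulfides, and glutathione reductase (Gsr) restores it with NADPH. Peroxiredoxins also reduce peroxides, but most draw their electrons from thioredoxin, which thioredoxin reductase recharges with NADPH. Nrf2, the product of Nfe2l2, is released from Keap1 when cells meet electrophiles or oxidants and binds antioxidant response elements of many of these genes. The renal outer medulla holds the straight part of the proximal tubule, a segment rich in glutathione synthesis, and the thick ascending limb, which works at low oxygen.

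The core of the antioxidant response element, TGACNNNGC, was searched on both strands of RefSeq promoter windows (build GRCr8) that run from 250 bases before to 50 bases after each gene's start. Of the 52 members with a sequence, 17 (32.7%) held the 9 letters, against 13.1% of 27457 gene symbols with a window of this length. Gpx8, Gsr, Gstm6l, Gstt1, GSTT2, Hmox1, Prdx6 and Txnip were not matched. Stretches are shown for 4 of the 5 matching members that passed the test described below, and for 3 further members that stand at entry points of the pathways. Capitals mark the 9 letters, which read GCNNNGTCA where the core lies on the opposite strand, and every stretch is written 5′ to 3′ along the gene.
Gsta3, chr9:31154947-31155005, plus strand: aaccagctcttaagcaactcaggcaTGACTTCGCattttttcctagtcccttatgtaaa
Gstp1, chr1:210769733-210769791, minus strand: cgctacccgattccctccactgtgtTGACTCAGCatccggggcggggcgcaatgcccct
Gstz1, chr6:112525356-112525408, plus strand: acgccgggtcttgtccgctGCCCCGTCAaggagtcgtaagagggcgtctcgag
Txndc5, chr17:26495420-26495478, plus strand: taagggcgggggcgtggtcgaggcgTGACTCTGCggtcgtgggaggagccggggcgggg
Gclm, chr2:213031938-213031996, plus strand: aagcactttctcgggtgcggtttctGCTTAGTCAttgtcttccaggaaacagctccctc
Txnrd1, chr7:22755949-22756007, minus strand: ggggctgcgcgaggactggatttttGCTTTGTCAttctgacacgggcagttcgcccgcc
Prdx1, chr5:135383746-135383804, plus strand: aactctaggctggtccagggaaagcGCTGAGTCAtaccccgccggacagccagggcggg

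Counted from the gene's start, the core began at -61 in Gstp1, at -78 in Txnrd1, at -135 in Prdx1 and at -172 in Gclm. In Gstp1 and Prdx1 it overlaps TGACTCA, the element of AP-1 factors. Prdx4, also among the members that passed, held the core after its start. The Gclc window did not hold these letters, and sequence beyond the windows was not searched for any member. Carrying the core within the window did not go with 1 direction of change. Of 16 tested members with it there, 3 were called higher and 2 lower in HS_SCR than in 0.4% salt, by the test described below. Of 27 without it there, 3 were called higher and 1 lower. Of all tested loci, 8.2% were called higher and 4.88% lower. The median log2 difference was 0.06 with the core and 0.20 without it, against 0.02 over all loci.

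Some properties of the libraries bear on every value. Transcripts of both targeted genes were lowest in libraries labelled HS_SCR and not in those labelled HS_DT: Dnmt3a spanned 12.2 to 13.4 FPKM in 0.4% salt, 5.75 to 10.3 in HS_SCR and 8.72 to 11.02 in HS_DT, and Tet3 spanned 8.47 to 9.64, 5.04 to 8.20 and 7.62 to 8.54. HS_DT is therefore used as a label. HS_SCR replicate 3 stood apart, with Spearman correlations of 0.931 to 0.968 inside HS_SCR against 0.979 to 0.983 inside 0.4% salt and 0.968 to 0.984 inside HS_DT. The rat numbers form a lower series (781 to 785) and a higher one (859 to 871). All 0.4% salt rats, HS_SCR replicate 3 and HS_DT replicate 3 carry higher numbers, and the labels do not say what the numbers mark. Depth is unknown, and estimated relative depth ran from 0.761 to 1.37. Thick ascending limb markers of the labelled tissue were abundant (Umod 381 to 2608 FPKM, SLC12A1 451 to 974.7 FPKM).

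In the 0.4% salt rats peroxiredoxin 5 and thioredoxin had the highest means. Mean levels were 410 ± 61.2 FPKM (SD, n = 3) for Prdx5, 374 ± 6.13 for Txn1, 346 ± 16.3 for Gpx1, 335 ± 204 for Gclc, 274 ± 111 for Gclm and 256 ± 12.3 for Prdx2. Their order is not set beyond the spread: Prdx5, at 345 to 466 FPKM, overlapped Txn1 and Gpx1, and Gclc, at 192 to 569, overlapped all of the other 5 and was the highest member in replicate 2. Above 100 FPKM stood 13 members, and 6 tested members lay under 10 FPKM, with Txndc16 lowest at 4.65 ± 0.133. All 60 members together made up 0.548% to 0.710% of the summed FPKM of a library. Their sum was 4451 ± 453 FPKM in 0.4% salt, 5067 ± 65.5 in HS_SCR and 4430 ± 138 in HS_DT.

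**Figure D1:**
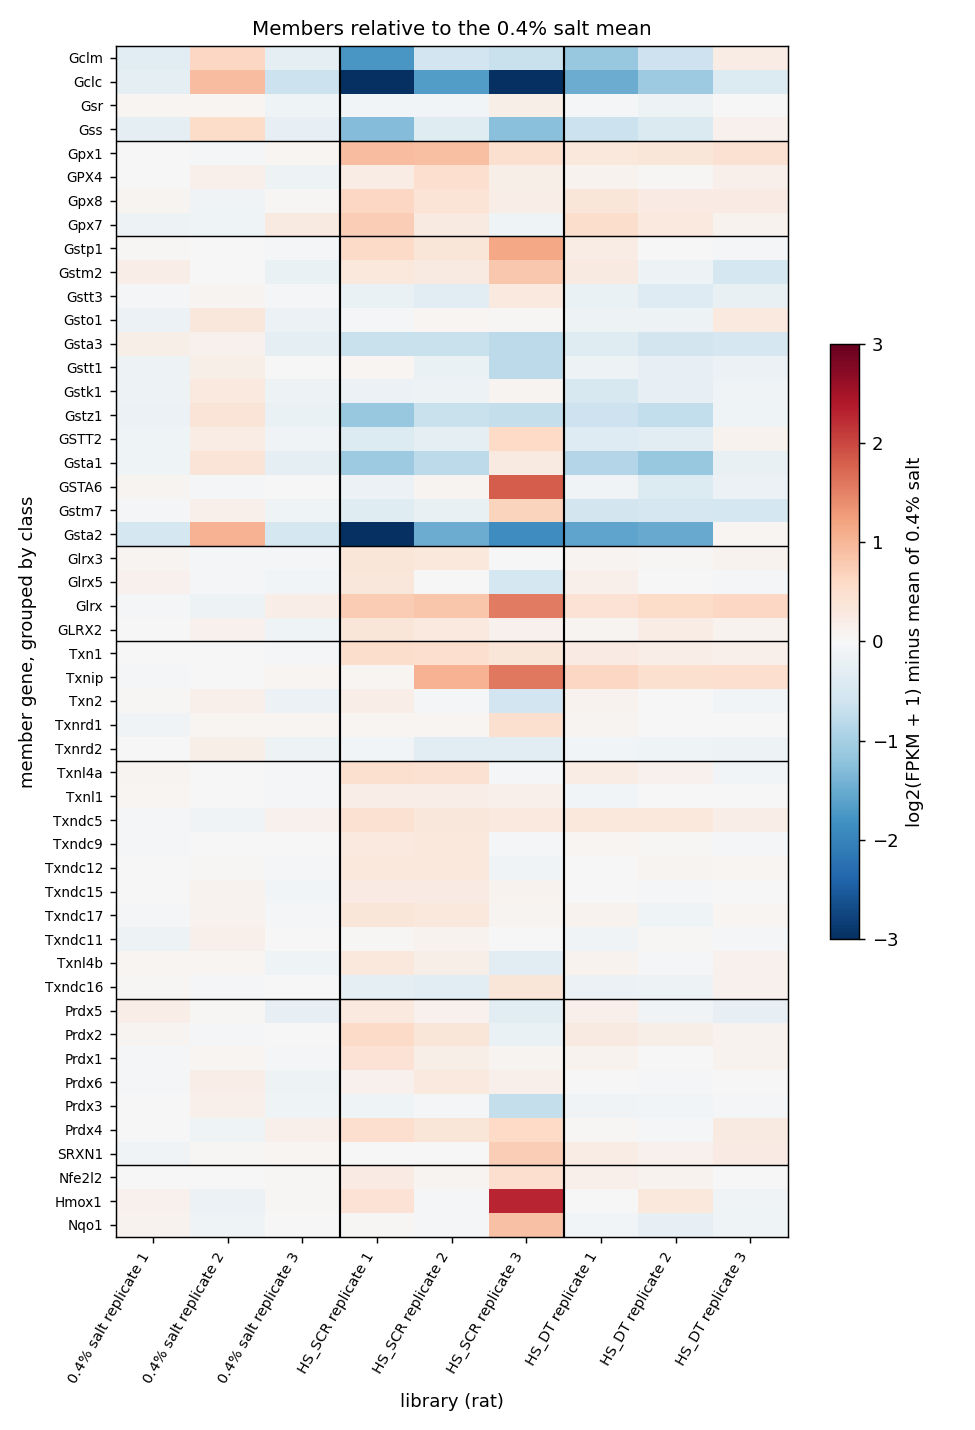
Each cell is the log2(FPKM + 1) of a tested member in a library minus that member's mean in the 0.4% salt rats, grouped by class from glutathione synthesis at the top to Nrf2 and inducible enzymes at the bottom; colours saturate at -3 and 3. Gclc and Gsta2 are the darkest blue in HS_SCR, Hmox1 is the darkest red in HS_SCR replicate 3 (119 FPKM), and the HS_DT libraries lie nearer the 0.4% salt values for Gpx1 and Txn1.

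Between 0.4% salt and HS_SCR, 7 members rose and 3 fell. Glutaredoxin (Glrx), Gpx1, Gstp1, Prdx4, Txn1, Gpx8 and Txndc5 rose, by log2 changes of 0.36 to 1.05. Gclc, the catalytic subunit of the first step of glutathione synthesis, fell by 2.69 on the log2 scale, the transferase Gstz1 fell by 0.84 and the transferase Gsta3 fell by 0.70. The changes are on the scale of log2(FPKM + 1), tested with limma, and a member is called when its Benjamini-Hochberg adjusted p over 14338 loci is under 0.05. The 7 members are 14% of the 50, against 8.2% of all loci called higher, and the 3 are 6% against 4.88% called lower. In either direction 20% of members were called against 13.1% of loci. The mean was higher in HS_SCR for 34 of 50 members, and the median change was 0.19, against 0.02 over all loci. FPKM ranges of the groups did not overlap for 13 members higher (26%) and 6 lower (12%), against 19.1% and 14.5% of loci. At an unadjusted p under 0.05 stood 20 of 50 members, against 32% of loci.

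These counts moved with single libraries. Without 0.4% salt replicate 2 none of the 10 was called (limma adjusted p 0.0523 to 0.160; 17 of 50 members at an unadjusted p under 0.05), and without 0.4% salt replicate 1 only Gpx1 and Txn1 were. Calls over all loci fell as well. They came to 1.81% higher and 0.601% lower without 0.4% salt replicate 2, and 2.29% and 0.816% without 0.4% salt replicate 1. Leaving out HS_SCR replicate 1, HS_DT replicate 1 or HS_DT replicate 2 gave 4 members higher in each case, against 6.91%, 5.88% and 5.05% of loci higher. With HS_SCR replicate 1 left out, 1 of the 4 was Txnip, which was not called with all libraries (1.31; limma adjusted p = 0.00757). Without HS_SCR replicate 3 there were 18 higher and 6 lower, against 20.5% and 15.7% of loci (36.3% in either direction), and all 10 stayed called. The HS_SCR rats are then all of the lower number series and the 0.4% salt rats all of the higher. Gpx1 and Txn1 kept their call without each other library, and Gclc, Glrx and Gsta3 lost theirs without 0.4% salt replicate 1 or 2 alone. Gpx8 kept its call only without HS_SCR replicate 3, Gstz1 without HS_SCR replicate 3 or HS_DT replicate 3, and Txndc5 without these or 0.4% salt replicate 3. Prdx4 lost its call without 0.4% salt replicates 1 or 2 or HS_SCR replicate 1, and Gstp1 kept it only without HS_SCR replicate 2 or 3. All 10 kept their direction in every fit. With a library left out this follows from the levels, since for each of the 10 the ranges of the groups did not overlap (exact permutation p = 0.1, the smallest that 3 against 3 allows).

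**Figure D2:**
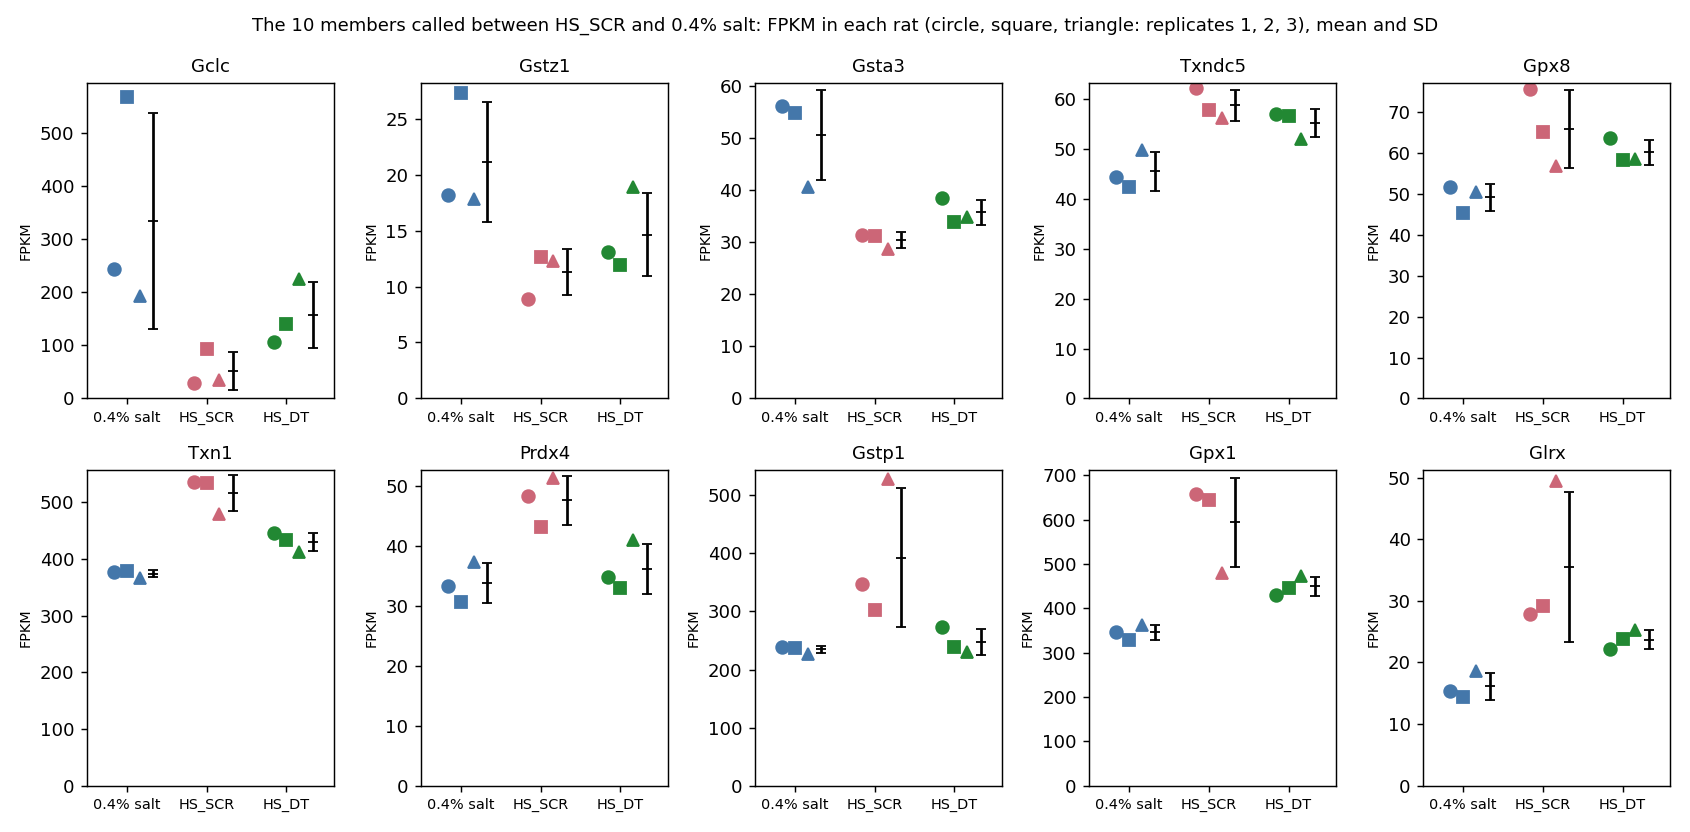
FPKM (axis from 0) of the 10 called members in each rat, with replicate 1 as a circle, 2 as a square and 3 as a triangle, and with the mean and SD of each group of 3 as bars. Gclc lies at 192 to 569 in 0.4% salt and at 28.5 to 93.5 in HS_SCR, while Txn1 lies at 367 to 378 and at 480 to 535, and the HS_DT mean lies between the other means in all 10 panels.

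Of the 4 genes of glutathione synthesis and reduction, Gclc fell and the others did not pass. Gclc (rn5 chr8:84627559-84666450) measured 244, 569 and 192 FPKM in 0.4% salt, 28.5, 93.5 and 34.8 in HS_SCR, then 106, 140.3 and 226 in HS_DT. The highest HS_SCR rat stood below the lowest 0.4% salt rat, and 0.4% salt replicate 2 stood far above the other rats of its group. The log2 change was -2.69 ± 0.53 (SE; 95% interval -3.91 to -1.48; limma adjusted p = 0.0170). Gclm (chr2:243836793-243887797) measured 205, 402 and 215 FPKM in 0.4% salt, 77.2, 174 and 165 in HS_SCR, then 119, 168 and 304 in HS_DT. Its ranges also did not overlap between HS_SCR and 0.4% salt, at a log2 difference of -0.99 ± 0.43 that did not pass (limma adjusted p = 0.154). Gss (chr3:157443735-157518151) measured 56.2, 102 and 58.0 FPKM, then 27.7, 53.9 and 28.6, then 44.1, 50.7 and 76.5, in the same order of groups. Its log2 difference in HS_SCR was -0.97 ± 0.33 (limma adjusted p = 0.0855), again with ranges apart.

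Gsr, the reductase, measured 105, 106 and 92.3 FPKM in 0.4% salt, 95.8, 95.1 and 113 in HS_SCR, then 97.5, 90.9 and 101 in HS_DT. The 3 groups overlapped, and the log2 difference in HS_SCR was 0.00 ± 0.10 (95% interval -0.22 to 0.23). The subunits of the ligase did not keep their proportion. The ratio of Gclc to Gclm FPKM was 1.19, 1.42 and 0.892 in 0.4% salt, 0.369, 0.536 and 0.211 in HS_SCR, then 0.892, 0.834 and 0.744 in HS_DT. Every HS_SCR rat stood below every other rat, with group means of 1.17 ± 0.263, 0.372 ± 0.163 and 0.823 ± 0.0746 (SD, n = 3). Summed over the class, levels were 782 ± 344, 329 ± 94.4 and 508 ± 178 FPKM.

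Proximal tubule markers moved with Gclc, Gclm and Gss of this class, but not with Gsr. In bulk tissue, fewer cells of a type and less RNA per cell cannot be told apart. Of 20 markers, 18 were found, and their summed level was 2711 to 6265 FPKM in 0.4% salt, 182 to 1906 in HS_SCR, where Slc5a12 was listed at 0, and 1225 to 4122 in HS_DT. Of the 16 tested, 6 were lower in HS_SCR and none higher (37.5% called, against 13.1% of all loci), with a median log2 change of -2.84. In each group Gclc, Gclm and Gss were highest in the library with the most proximal tubule RNA, namely 0.4% salt replicate 2, HS_SCR replicate 2 and HS_DT replicate 3. This held in all 3 groups for 8 members (GPX4, Gclc, Gclm, Gss, Gsta2, Gsto1, Gstz1 and Prdx3), 16% of 50 against 6.21% of loci. With the mean log2 level of these markers as a covariate, 0 of the 10 members was called (limma adjusted p 0.167 to 0.786; 9 of 50 members at an unadjusted p under 0.05), and 3 of 14338 loci were. In that fit the log2 difference of Gclc in HS_SCR was -0.90 (limma adjusted p = 0.329) in place of -2.69, and that of Gstz1 was -0.16 in place of -0.84. The differences of Gsta3, Glrx, Prdx4, Txn1 and Gpx1 were -0.69, 1.00, 0.48, 0.44 and 0.84, against -0.70, 1.05, 0.48, 0.46 and 0.77 without the covariate. Those of Gstp1, Gpx8 and Txndc5 were smaller with the covariate, at 0.43, 0.25 and 0.22 against 0.70, 0.41 and 0.36. Those of Gclm and Gss, which were not called in either fit, were 0.42 and 0.18 with it. The marker mean itself did not overlap between 0.4% salt (5.47 to 6.96) and HS_SCR (2.30 to 4.64). The fit therefore cannot cleanly separate marker level from group. Thick ascending limb markers moved as well, with 5 of 14 lower and 1 higher (42.9% called). Their sums were 4696 to 6611 FPKM in 0.4% salt, 3387 to 5483 in HS_SCR and 4340 to 5350 in HS_DT.

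**Figure D3:**
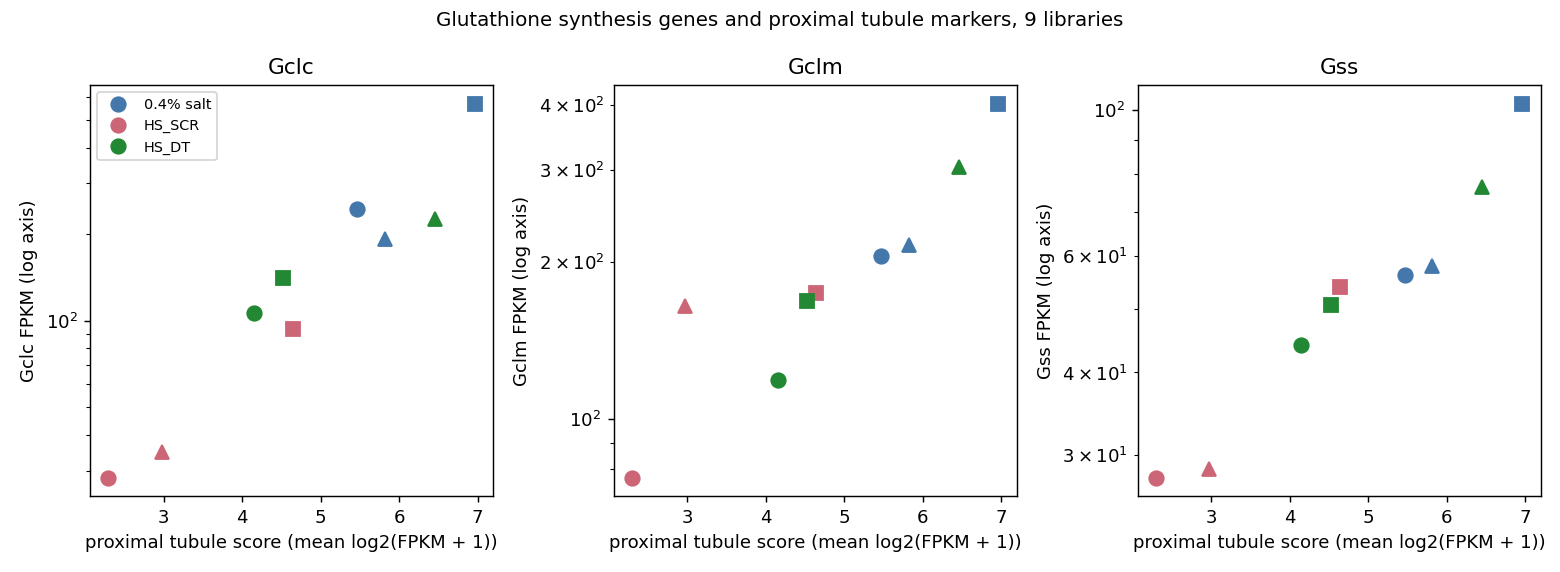
FPKM (log axis) of Gclc, Gclm and Gss in each of the 9 libraries against the proximal tubule score, the mean log2(FPKM + 1) of the marker genes; colours give the group, and circle, square and triangle give replicates 1, 2 and 3. The points share library and scaling, and the score runs from 2.30 in HS_SCR replicate 1 to 6.96 in 0.4% salt replicate 2, the libraries where Gclc is lowest (28.5 FPKM) and highest (569 FPKM).

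Of the 4 tested glutathione peroxidases, Gpx1 and Gpx8 rose in HS_SCR and GPX4 and Gpx7 did not pass. Gpx1 (chr8:116466149-116467210), the cytosolic enzyme that reduces hydrogen peroxide, measured 347, 329 and 362 FPKM in 0.4% salt, 659, 645 and 479 in HS_SCR, then 431, 446 and 473 in HS_DT. Every HS_SCR rat stood above every other rat, and every HS_DT rat stood above every 0.4% salt rat. The log2 change in HS_SCR was 0.77 ± 0.13 (limma adjusted p = 0.0105), from 346 ± 16.3 to 594 ± 99.95 FPKM (SD, n = 3). Gpx8 (chr2:63940889-63944583), a peroxidase of the endoplasmic reticulum, measured 51.7, 45.4 and 50.4 FPKM, then 75.8, 65.1 and 56.9, then 63.7, 58.4 and 58.6. Its lowest HS_SCR value lay above the highest of 0.4% salt, and the log2 change was 0.41 ± 0.11 (limma adjusted p = 0.0456). GPX4, which reduces lipid hydroperoxides in membranes, measured 139, 154 and 126 FPKM, then 162, 197 and 156, then 149, 143 and 154. Its ranges in HS_SCR and 0.4% salt were apart by a small margin, and its difference of 0.29 ± 0.11 did not pass (limma adjusted p = 0.109).

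Summed erythroid and macrophage markers were higher in every HS_SCR rat than in every 0.4% salt rat, as were the members that rose. Summed erythroid markers were 770.0 to 1133 FPKM in 0.4% salt, 1946 to 10746 in HS_SCR and 2459 to 3318 in HS_DT, with Rhag listed at 0 in 0.4% salt, and 5 of 6 tested were higher in HS_SCR. Summed macrophage markers were 3096 to 3445, 4356 to 6982 and 4308 to 5110 FPKM, with 10 of 16 higher in HS_SCR and a median log2 change of 0.90. Of 3 tested neutrophil markers 2 were higher. Of all loci, 8.2% were called higher. Inside HS_SCR the members did not all follow these sums. Replicate 3 had the lowest erythroid and macrophage sums of the group, 1946 and 4356 FPKM. Glrx, Gstp1 and Prdx4 were highest of all libraries there, and Gpx1, Txn1, Gpx8 and Txndc5 were lowest of HS_SCR there. The part of these cells in the changes of Gpx1, Txn1, Glrx, Gstp1, Prdx4, Gpx8 and Txndc5 was not tested.

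The glutathione S-transferases split in direction: of 13 tested members, Gstp1 rose and Gsta3 and Gstz1 fell in HS_SCR, and the median log2 change was -0.08. Gstp1 (chr1:226162329-226164798), the pi-class enzyme, measured 239, 237 and 227 FPKM in 0.4% salt, 348, 302 and 529 in HS_SCR, then 273, 238 and 230.1 in HS_DT. The 0.4% salt rats lay close together, all HS_SCR rats lay above every other rat, and HS_SCR replicate 3 was highest. The log2 change was 0.70 ± 0.19 (limma adjusted p = 0.0425). Gsta3 (chr9:26210312-26264356), of the alpha class that conjugates lipid peroxidation products, measured 56.1, 54.8 and 40.5 FPKM, then 31.3, 31.1 and 28.7, then 38.4, 33.9 and 34.8. All HS_SCR and all HS_DT rats lay below the lowest 0.4% salt rat, and the change in HS_SCR was -0.70 ± 0.13 (limma adjusted p = 0.0134). Gstz1 (chr6:120421172-120471418), also known as maleylacetoacetate isomerase of tyrosine breakdown, measured 18.2, 27.3 and 17.8 FPKM, then 8.90, 12.7 and 12.3, then 13.1, 11.9 and 18.9. Its HS_SCR values all lay below those of 0.4% salt (-0.84 ± 0.22; limma adjusted p = 0.0418).

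The remaining transferases did not pass in HS_SCR. Gstm2 measured 179, 158 and 135 FPKM, then 195, 189.8 and 275, then 189, 140.1 and 108, so HS_SCR lay above 0.4% salt without overlap (0.47 ± 0.22; limma adjusted p = 0.179). Gstt3, a theta-class enzyme, measured 95.1, 104 and 94.1 FPKM, then 85.5, 76.8 and 120.2, then 85.5, 74.2 and 83.0, with overlap between HS_SCR and both other groups. Gsta2 had the largest difference of the transferases, from 6.14, 20.2 and 6.17 FPKM to 0.184, 2.66 and 1.84, at -2.15 ± 0.62, and narrowly missed the threshold (limma adjusted p = 0.0533). Gsta1, Gsta3 and GSTA6 are adjacent loci on chromosome 9, Gstm2, Gstm3, Gstm6, Gstm6l and Gstm7 on chromosome 2, and the Gstt genes on chromosome 20. Members of these clusters can be alike in sequence, to degrees not measured here. No source used here says how fragments that match several of them were shared out, which makes their values uncertain. A locus named both Gstm1 and Gstm4, and another holding Gsta4, were left out by the rule; the former measured 199 FPKM in HS_SCR replicate 3 against 51.0 to 101 in the other libraries.

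Glutaredoxin rose in HS_SCR and the 3 other glutaredoxins did not pass. Glrx (chr2:2604428-2614398), which removes glutathione from protein cysteines, measured 15.3, 14.4 and 18.6 FPKM in 0.4% salt, 27.8, 29.2 and 49.5 in HS_SCR, then 22.1, 23.8 and 25.2 in HS_DT. The 3 groups did not overlap at all, and its change in HS_SCR, 1.05 ± 0.20, was the largest rise among the members (limma adjusted p = 0.0163). Glrx3, which works in cytosolic iron trafficking, measured 51.3, 47.4 and 46.3 FPKM, then 62.8, 59.9 and 48.4, then 50.8, 49.5 and 51.8. HS_SCR replicates 1 and 2 stood above all other rats, and replicate 3 lay among them (0.23 ± 0.10; limma adjusted p = 0.167). Glrx5, the mitochondrial iron-sulfur cluster carrier, measured 30.5, 26.9 and 26.1 FPKM, then 35.3, 28.1 and 19.0, then 30.9, 27.5 and 27.0, with HS_SCR spanning both the highest and the lowest of the 9 values.

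Among thioredoxins, reductases and inhibitor, Txn1 rose and the other 4 did not pass. Txn1 (chr5:79201245-79230537), the cytosolic thioredoxin, measured 377, 378 and 367 FPKM in 0.4% salt, 535, 534 and 480 in HS_SCR, then 445, 433 and 413 in HS_DT. The groups did not overlap, with HS_DT between the others. The log2 change in HS_SCR was 0.46 ± 0.08 (limma adjusted p = 0.0112), from 374 ± 6.13 to 516 ± 31.6 FPKM. Txnip, the protein that binds and inhibits thioredoxin, measured 161, 171 and 175 FPKM, then 175, 351 and 505, then 261, 234 and 242. HS_SCR replicate 1 lay inside the 0.4% salt range and the other HS_SCR rats far above it, at 0.89 ± 0.32 (limma adjusted p = 0.0938). Txn2, the mitochondrial thioredoxin, measured 77.5, 83.4 and 66.6 FPKM, then 86.8, 73.6 and 50.7, then 81.9, 75.7 and 71.0, with the groups overlapping. The thioredoxin reductases differed by 0.20 ± 0.12 (Txnrd1, cytosolic; limma adjusted p = 0.289) and -0.23 ± 0.11 (Txnrd2, mitochondrial; limma adjusted p = 0.183) between HS_SCR and 0.4% salt.

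Of the 10 tested thioredoxin-domain and thioredoxin-like genes, Txndc5 rose, 9 had a higher mean in HS_SCR, and the median log2 change was 0.19. Txndc5 (chr17:28841021-29030412), a disulfide isomerase of the endoplasmic reticulum, measured 44.4, 42.4 and 49.8 FPKM in 0.4% salt, 62.3, 57.9 and 56.3 in HS_SCR, then 57.0, 56.7 and 52.0 in HS_DT. All high-salt rats lay above all 0.4% salt rats, and the change in HS_SCR was 0.36 ± 0.09 (limma adjusted p = 0.0297). Its locus spans 189391 bases and that of Txndc15 spans 598925, so other transcripts may lie within them. Txnl4a, a splicing factor with a thioredoxin fold, measured 68.7, 64.0 and 62.3 FPKM, then 91.4, 89.8 and 62.7, then 75.6, 71.2 and 61.8. HS_SCR replicates 1 and 2 were the highest of all, and replicate 3 was level with 0.4% salt (0.30 ± 0.15; limma adjusted p = 0.1999). Txnl1, which binds the proteasome, measured 68.9, 65.7 and 63.6 FPKM, then 76.5, 75.5 and 72.9, then 62.8, 66.0 and 65.8. Its HS_SCR rats lay above every other rat by a small margin (0.18 ± 0.07; limma adjusted p = 0.103). The 7 others differed by -0.08 to 0.26 and none passed.

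Of the 6 peroxiredoxins and sulfiredoxin, Prdx4 alone rose in HS_SCR. Prdx4 (chrX:43801323-43816646), the peroxiredoxin of the secretory pathway, measured 33.3, 30.6 and 37.2 FPKM in 0.4% salt, 48.2, 43.2 and 51.2 in HS_SCR, then 34.8, 32.9 and 40.9 in HS_DT. HS_SCR stood above every other rat, and HS_DT overlapped 0.4% salt. The change was 0.48 ± 0.11 (limma adjusted p = 0.0290). Prdx5, found in mitochondria, peroxisomes and cytosol, measured 466, 418 and 345 FPKM, then 496, 445 and 323, then 452, 377 and 345, with complete overlap (0.03 ± 0.18; 95% interval -0.39 to 0.45). Prdx2, a cytosolic enzyme abundant in red blood cells, measured 269, 245 and 255 FPKM, then 382, 331 and 223, then 308, 291 and 275. HS_SCR held both its highest and its lowest value (0.25 ± 0.18; limma adjusted p = 0.359). Prdx1 measured 225, 238 and 223 FPKM, then 310.1, 256 and 240.2, then 244, 226 and 247, so HS_SCR lay just above 0.4% salt (0.23 ± 0.10; limma adjusted p = 0.171). SRXN1, sulfiredoxin, which repairs over-oxidised peroxiredoxins, measured 6.98, 7.87 and 8.04 FPKM, then 7.54, 7.55 and 13.4, then 8.9996, 8.44 and 9.25. Only HS_SCR replicate 3 exceeded the HS_DT rats (0.24 ± 0.19; limma adjusted p = 0.417).

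Nrf2 and the inducible enzymes did not pass in any comparison. Nfe2l2 measured 60.9, 61.0 and 62.5 FPKM in 0.4% salt, 73.0, 64.7 and 88.1 in HS_SCR, then 68.0, 66.2 and 61.2 in HS_DT. HS_SCR lay above 0.4% salt without overlap, at 0.28 ± 0.11 (limma adjusted p = 0.124). Hmox1, which breaks down haem, measured 26.0, 20.8 and 24.1 FPKM, then 32.1, 22.5 and 119, then 23.5, 29.6 and 21.7. The value of HS_SCR replicate 3 was far above the other 8, and without it the rest overlapped (0.89 ± 0.51 with all libraries; limma adjusted p = 0.258). Nqo1, a quinone reductase, measured 11.3, 9.39 and 10.4 FPKM, then 10.7, 9.96 and 19.8, then 9.67, 8.50 and 9.27. HS_SCR replicate 3 was again alone above the others (0.29 ± 0.22; limma adjusted p = 0.388).

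**Figure D4:**
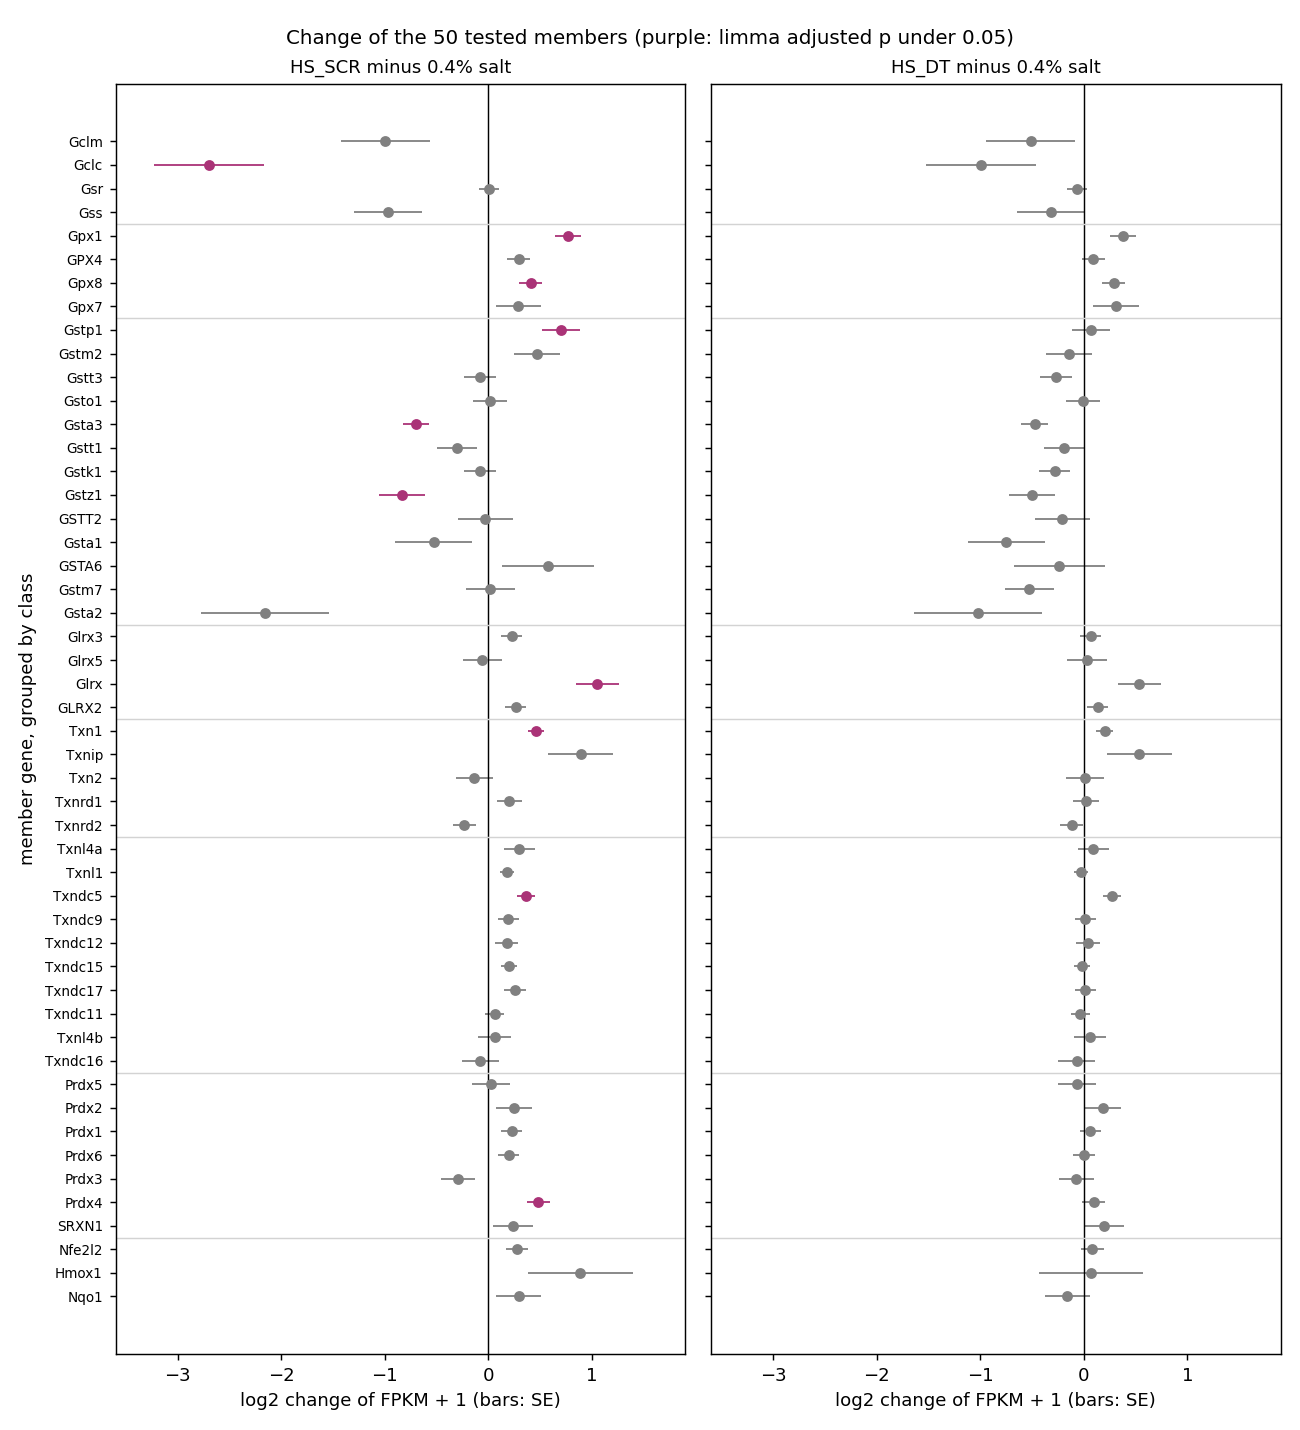
Log2 differences (FPKM + 1) of the 50 tested members from 0.4% salt in HS_SCR (left) and HS_DT (right), with bars of 1 SE; purple marks limma adjusted p under 0.05. In HS_SCR 10 members are purple and Gclc is farthest left at -2.69; in HS_DT none is, and Gclc lies at -0.99 and Gsta2 at -1.02.

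HS_SCR replicate 3 was the highest of the 9 libraries for 16 members (32%, against 23.1% of loci) and the lowest for 11 (22%, against 24.1%). Relative to the median of the other 8 libraries, Hmox1 was 4.997 times as high there, GSTA6 4.27, Txnip 2.46, Gstp1 2.22, Glrx 2.15, Gstm7 2.10, Nqo1 2.01, GSTT2 1.80, Gsta1 1.79 and SRXN1 1.68 times. Nfe2l2 and Txnrd1 reached 1.39 and 1.37 times. At the other end stood Gclc at 0.209, Gsta2 at 0.419, Gss at 0.519, Prdx3, the mitochondrial peroxiredoxin, at 0.628, Gstt1 at 0.638, Txn2 at 0.662 and Glrx5 at 0.685 times. Gclm, at 165 FPKM, lay within the range of the other 8 libraries, as did Gclc, Gss, Gsta2 and Gsta1. Gclc, Gss, Gsta2 and Gclm were lowest in HS_SCR replicate 1, at 28.5, 27.7, 0.184 and 77.2 FPKM, so their low levels were not particular to replicate 3. Gsta1 was highest in 0.4% salt replicate 2. The mitochondrially encoded share of summed FPKM of this library was 20.6%, against up to 31.9% elsewhere. HS_SCR replicate 1 was highest for 17 members (34%, against 20.5% of loci), among them Txn1, Gpx1, Prdx1, Prdx2 and Prdx5.

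**Figure D5:**
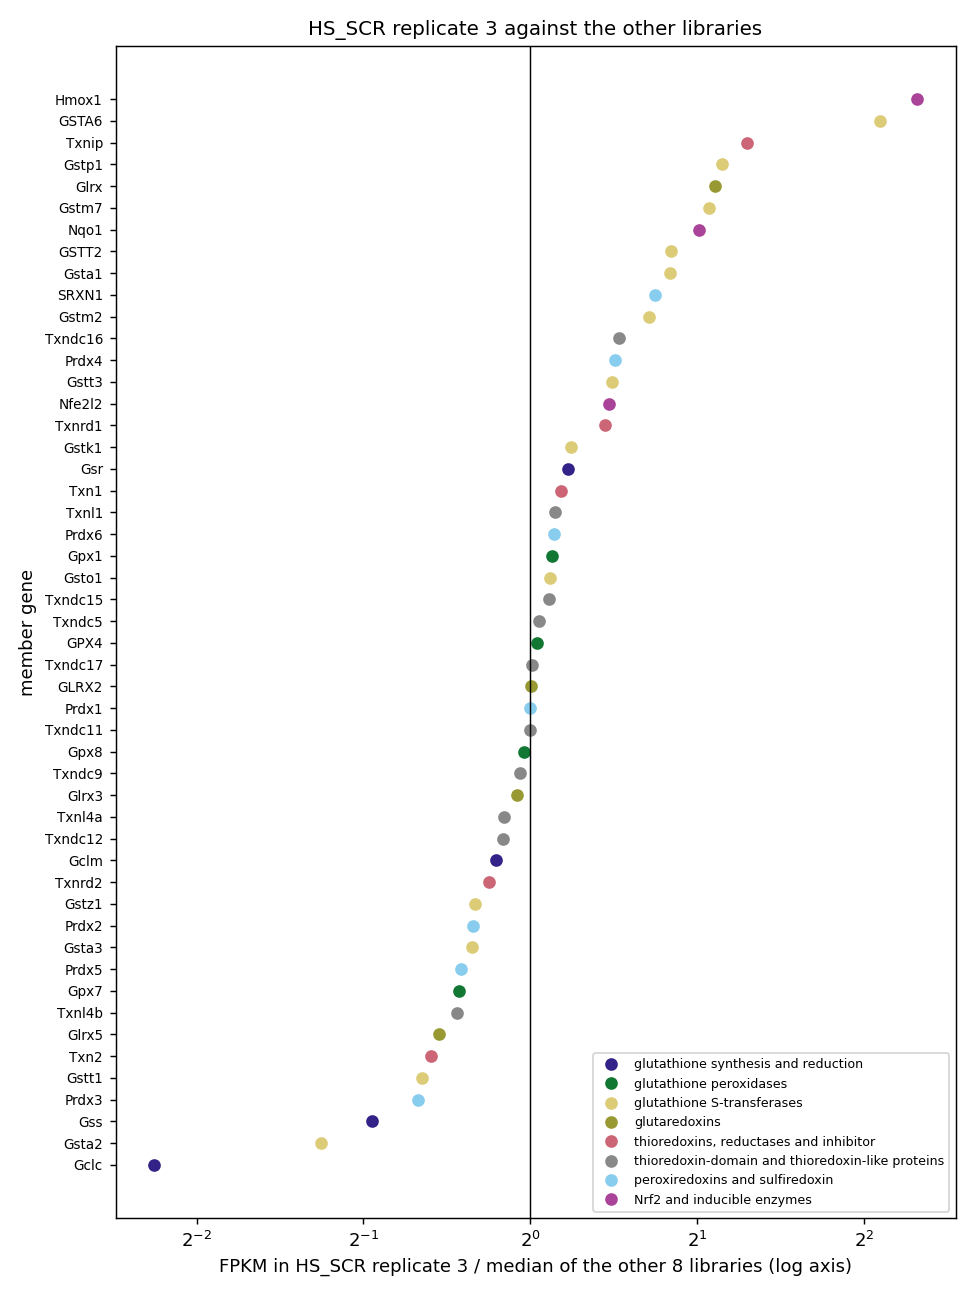
FPKM in HS_SCR replicate 3 divided by the median of the other 8 libraries (log axis), 1 point per tested member, coloured by class. Hmox1 (4.997) and GSTA6 (4.27) lie farthest right, Gclc (0.209) farthest left, and Gss (0.519) and Gclm lie left of the line while Nqo1 (2.01) and SRXN1 (1.68) lie right of it.

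Within the higher rat number series, where HS_SCR replicate 3 is the only HS_SCR rat, the sign of each called member's difference from 0.4% salt is fixed by the groups' separate ranges. The log2 differences were -3.07 for Gclc, 1.57 for Glrx, 1.17 for Gstp1, 0.47 for Gpx1 and 0.36 for Txn1, with no test for 1 rat. With the series as a factor over all libraries, Glrx, Gpx1, Gsta3, Gstp1, Prdx4 and Txn1 stayed called, and Gclc, Gstz1, Gpx8 and Txndc5 did not.

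Of 20 tested genes of cystine and glutathione turnover, Slc3a2, the heavy chain of amino acid exchangers, rose in HS_SCR (0.35 ± 0.08; limma adjusted p = 0.0247). Cth, which makes cysteine from cystathionine, fell (-1.77 ± 0.45; limma adjusted p = 0.0383), as did Anpep, a brush border peptidase that splits cysteinylglycine (-2.55 ± 0.70; limma adjusted p = 0.0464). The list's median change was -0.37, and 15% of it was called, against 13.1% of all loci. Slc3a1 of this list is also a proximal tubule marker. Among genes of NADPH supply, the folate enzymes Aldh1l1 (-0.82 ± 0.15) and Mthfd1 (-0.79 ± 0.16), the mitochondrial transhydrogenase Nnt (-0.86 ± 0.18) and malic enzyme Me1 (-0.52 ± 0.12) fell, with limma adjusted p of 0.0131, 0.0193, 0.0196 and 0.0312. The median of that list was -0.13.

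Of 22 regulators and further targets of Nrf2, 5 rose and none fell in HS_SCR (22.7% called, against 8.2% of all loci higher and 13.1% in either direction; median 0.22). Maff (1.14 ± 0.19; limma adjusted p = 0.0108) and Mafk (0.47 ± 0.10; 0.0191) encode small Maf proteins, the partners of Nrf2 and of its competitor Bach1. Fth1, ferritin heavy chain (0.74 ± 0.19; limma adjusted p = 0.0415), Cbr3, a carbonyl reductase (0.54 ± 0.12; 0.0231), and SQSTM1, the autophagy receptor p62 that binds Keap1 (0.50 ± 0.11; 0.0271), also rose. Akr7a3, an aldehyde reductase of the same list, had the opposite sign (-1.74 ± 0.50; limma adjusted p = 0.0532). Of 18 other peroxide and thiol enzymes, Mgst2, a microsomal transferase (1.45 ± 0.30; limma adjusted p = 0.0188), and Vimp, a selenoprotein of the endoplasmic reticulum (0.49 ± 0.09; 0.0150), rose, and Sesn3, a sestrin, fell (-0.53 ± 0.09; 0.0108). These are 16.7% of the list, against 13.1% of all loci, and the median of the list was -0.09.

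Between HS_DT and HS_SCR no member was called by limma, and 1 of 14338 loci was (0.00697%). At an unadjusted p under 0.05 there were 10 members of 50, against 19.1% of loci. Ranges did not overlap for 2 members higher in HS_DT (Gclc and Gsta3) and 12 lower (4% and 24%), against 9.1% and 12.5% of loci. The median difference was -0.16, against -0.00 over all loci, and 13 of 50 means were higher in HS_DT. Gclc differed by 1.70 ± 0.53 (95% interval 0.49 to 2.91; limma adjusted p = 0.151). Gpx1 differed by -0.39 ± 0.13 (limma adjusted p = 0.164), Txn1 by -0.26 ± 0.08 (0.140), Gstp1 by -0.63 ± 0.19 (0.135), Prdx4 by -0.39 ± 0.11 (0.132) and Glrx by -0.51 ± 0.20 (0.223). In the same libraries the erythroid, macrophage and proximal tubule sums of HS_DT all had medians between those of the other groups, and the part of these cells was not tested.

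Leaving out HS_SCR replicate 3 gave 10 members lower and none higher in HS_DT, against 9.29% and 6.76% of loci. They were Gpx1 (-0.54; limma adjusted p = 0.0129), Txn1 (-0.31; 0.0204), Gstp1 (-0.39; 0.0337), Glrx3, Txnl1, Txnl4a, Txndc9, Txndc12, Txndc15 and Txndc17. Those 10 are 20% of the members. HS_SCR then holds 2 rats, both of the lower number series, and HS_DT holds rats of both series. The call of the 10 turns on that 1 rat. Between HS_DT and 0.4% salt the same omission called no member and 0.0698% of loci, all of them higher in HS_DT.

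Between HS_DT and 0.4% salt no member and no locus was called by limma (0% of 14338), and 6 members had an unadjusted p under 0.05, against 7.49% of loci. Ranges did not overlap for 8 members higher in HS_DT (16%, against 14.2% of loci) and 4 lower (8%, against 9.64%), and the median difference was 0.01. Gsta3 differed by -0.48 ± 0.13 (limma adjusted p = 0.420), Gpx1 by 0.38 ± 0.13 (0.515), Glrx by 0.54 ± 0.20 (0.585), Txndc5 by 0.27 ± 0.09 (0.477) and Txn1 by 0.20 ± 0.08 (0.599). Txnip lay higher in all HS_DT rats than in all 0.4% salt rats (0.54 ± 0.32; limma adjusted p = 0.754). Gclc overlapped, at -0.99 ± 0.53 (95% interval -2.20 to 0.22; limma adjusted p = 0.734).

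The mean of HS_DT lay between the means of the other groups for 33 of 50 members (66%), against 58.0% of all loci. It did so for all 10 members called between HS_SCR and 0.4% salt, which were chosen for the distance between those same libraries. A test over the 3 groups together (moderated F) called Gpx1, Txn1, Gsta3, Glrx and Gclc, 10% of the members against 5.61% of loci (limma adjusted p 0.0298 to 0.0472).

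The pathway genes gave no call in either comparison with HS_DT. Against HS_SCR the smallest p-values were those of Slc3a2 (-0.29 ± 0.08; limma adjusted p = 0.112) and Cth (1.11 ± 0.45; 0.233) for turnover, and of Nnt (0.64 ± 0.18; 0.121) and Aldh1l1 (0.52 ± 0.15; 0.125) for NADPH supply. SQSTM1 (-0.45 ± 0.11; limma adjusted p = 0.0986) and Ugdh, which supplies glucuronic acid (-0.29 ± 0.08; 0.106), led the Nrf2 list, and Vimp (-0.41 ± 0.09; 0.0797) and Sesn3 (0.36 ± 0.09; 0.0978) led the other enzymes. Against 0.4% salt the adjusted p of the leading pairs lay between 0.477 (Me1, -0.41 ± 0.12) and 0.771 (Oplah, -0.26 ± 0.16), with Abcc2, Nadk2, Maff, Cbr3, Mgst2 and Msrb3 between them.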

How the data were processed

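The deposited values are FPKM per locus, computed by the authors. Per the submitters' processing notes, Trim Galore 0.2.5, Cufflinks 2.2.1 and build rn5 were used. No source used here gives the aligner, annotation, strandedness or scaling. Overlapping genes and near copies may share fragments. Libraries were matched to columns by rat number; 1 further column repeats HS_DT replicate 3 at 30315 loci and was not used. Relative depth was estimated from loci where single fragments set the FPKM.

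Loci averaging 1 FPKM or more were analysed as log2(FPKM + 1) with limma 3.58.1 (trend; R 4.3.3) in 1 fit of the 3 groups (6 residual degrees of freedom, 8.54 moderated). Tests were two-sided, with Benjamini-Hochberg adjustment over 14338 loci. Single values had exact permutation tests. The fit was tested on simulated data. No label says that replicate numbers pair rats, and no block was used. Members with values in every library are those called, the 8 genes listed by name and the 3 most abundant of each class; of each pathway list, up to 4 called genes, or the 2 smallest p. Not every value under this rule is reported here. Akr7a3 was named after its value was seen. Members and lists were chosen with earlier results of these data known. Promoters came from RefSeq (GRCr8), matched by symbol.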

Additional observations from a re-analysis of the deposited data

How the results depend on the processing

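The main fit called 7 members higher and 3 lower in HS_SCR than in 0.4% salt, against 8.2% and 4.88% of loci. Quantile normalization gave 2 higher and 3 lower, against 6.35% and 4.7% of loci. A fit of the 2 groups alone gave 0 and 0 (limma adjusted p of the 10 members 0.0502 to 0.110; 15 of 50 at an unadjusted p under 0.05), and the proximal tubule score as a covariate gave 0 and 0. Of all loci, these fits called 2.27% and 0.0209% higher, and 0.976% and 0% lower. The rat number series as a factor gave 5 higher and 1 lower, against 5.88% and 3.32% of loci. With the replicate number as a block, 6 were higher and 4 lower, against 7.92% and 5.37% of loci. Gstp1 lost its call there (limma adjusted p = 0.0548). Whether same-numbered libraries pair is not settled. Correlations of residuals were over 0.1 in 5 of 9 such pairs (-0.08 to 0.26), against 2 of 18 other pairs (-0.31 to 0.24). Leaving out 1 library at a time gave 0 to 18 higher and 0 to 6 lower, against 1.81% to 20.5% and 0.601% to 15.7% of loci. For HS_DT against HS_SCR the omissions gave 0 to 10 lower, against 0% to 9.29% of loci. Leaving out both high-salt rats of the higher number series, an alternative chosen after seeing the data, gave 18 higher and 6 lower, against 20.9% and 16.5% of loci, and 2 lower in HS_DT than in HS_SCR, against 4.12%. The cause of these shifts was not tested. A pseudocount of 0.1 FPKM and median-ratio rescaling left 7 and 3, against 8.21% and 7.87% of loci higher, and 4.85% and 4.95% lower. No filter on low values gave 5 and 2, against 4.1% and 2.63% of loci. A minimum mean of 5 FPKM gave 7 and 4, against 11.2% and 5.45% of loci. All 10 members kept their direction in every alternative, and no alternative called a member higher in HS_DT than in HS_SCR, or in either direction against 0.4% salt. Over all loci, 62.7% of calls were higher in HS_SCR, against 73.7% and 75.1% without 0.4% salt replicate 1 or 2. With 3 rats a group and unknown depth, no counting error can be given.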
